A study of Mus musculus with 4 samples.

Results

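The regions described here are autosomal stretches with many covered cytosines, called CpG-dense, that were highly methylated in wild-type (WT) mouse embryonic stem (ES) cells. Reduced representation bisulfite sequencing, a method that samples CpGs beside MspI cut sites and so favours CpG-rich sequence, was carried out on 2 libraries of Naa10 KO ES cells and 2 libraries of WT ES cells. Naa10 codes for the enzyme that, with its partner Naa15, acetylates the N-termini of many proteins as they are made, and the question was how DNA methylation changes when it is missing. The culture was the same for both genotypes: N2B27 with LIF plus a Mek and a Gsk3 inhibitor, at first on feeders and for the last 5 passages off them. The sources used here do not give the knockout allele, the number of clones or the strain, so a difference between genotypes and a difference between 2 cell lines cannot be told apart. Whether the 2 libraries of a genotype are of separate cultures is not said either, and p-values then cover the spread of these libraries alone, which may be technical.

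A window of 1 kb was a member if it held 20 or more cytosines with 10 or more calls in each of the 4 libraries, and if its level was 80% or more in both WT libraries. The level is the number of methylated calls over all calls in the window. Cytosines of both strands are counted, so a CpG can give 2 of them. On average 78.8% of the cytosines of a member had another covered cytosine at the next base. Members held a median of 6.20 cytosines per 100 bp, against 12.1 in dense windows below 20% in both WT libraries. Dense, sparse and sparser thus refer here to the number of covered cytosines per window. There were 1123 members among the 20867 autosomal windows of this density, 5.38% of them, and among 119319 windows with 3 or more such cytosines. WT levels chose the members, so the WT values below describe the choice and are not a finding. Just inside the threshold, a window of chromosome 5 (chr5:127840001-127841000, mm9) had 80.1% in WT replicate 1 and 80.0% in WT replicate 2. Just outside it, a window of chromosome 15 (chr15:12997001-12998000) had 80.0% and 79.9%. In the WT library with the lower level, 283 windows lay between 80 and 85% and 206 between 75 and 80%. The 206 windows below the threshold averaged 23.5% in the first KO library and 15.6% in the second, while the 283 above it averaged 26.9% and 17.1%. The autosomes gave 67624448 to 78430824 calls per library and 1874113 cytosines shared at this coverage, with a median depth of 26 to 31 calls.

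In mammals most CpG-dense sequence, the CpG islands, lies at gene starts and is kept free of methylation. Dense sequence that is methylated is the exception. It is known from promoters that are silenced for the long term, such as those of germline genes in somatic cells, from one parental copy of imprinted control regions, from CpG-rich stretches inside gene bodies and from repeats. Once laid down by the de novo enzymes Dnmt3a and Dnmt3b, methylation is copied at each division by Dnmt1 with the help of Uhrf1, and ES cells grown with Mek and Gsk3 inhibitors are known to hold less of it than ES cells grown in serum.

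The gene start sequences of RefSeq were set to places in the data by the spacing of their CpG letters, because the coordinates of the data are of mm9 and the reference is of GRCm38.p6. A place was taken where every cytosine listed in any library fell on a CpG letter of the sequence, with 10 or more such cytosines. Of 19710 autosomal sequences with enough CpG letters, 8630 sequences of 7725 genes were placed. Only 11 of the 1092 members on chromosomes with promoter sequences overlapped a placed gene start, 1.01% of them. For dense windows below 20% in both WT libraries the share was 35.9%. Methylated windows with 10 to 19 cytosines, which had nearly the same local density (6.03 cytosines per 100 bp, against 6.20 in members), overlapped one in 0.686% of cases. These shares count placed starts only, and a start that was not placed can still lie in a member. Dense low-methylated windows held a median of 49 cytosines, against 23 in members, so a start there can be easier to place. The part of this in the shares, and in the distances to placed starts given below, was not tested. The places are not all equally sure. With 10 or more listed cytosines 10730 sequences fitted somewhere on their own chromosome, but 5211 also fitted somewhere on the next one, where they do not belong. With 20 or more these numbers were 6983 and 0. Of the 11 starts in members 8 rest on 11 to 19 listed cytosines, with a single place on the chromosome that keeps the RefSeq order, and are less certain. Fkbp6, Aknaos and Gm15455 rest on more than 20.

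The 4 promoters printed next were chosen among the 11 after their values were seen. Fkbp6 had the lowest promoter level of the 11 in KO replicate 1, Tuba3a was the one gene of the germline list among them, and Cldn18 and Slc41a3 had the highest promoter levels in both KO libraries. Letters are RefSeq's for GRCm38.p6, 5′ to 3′ on the strand of the gene, from 250 bases before to 50 bases from the gene start on. Capitals mark CpGs with 10 or more calls in all 4 libraries on at least one strand.
Fkbp6: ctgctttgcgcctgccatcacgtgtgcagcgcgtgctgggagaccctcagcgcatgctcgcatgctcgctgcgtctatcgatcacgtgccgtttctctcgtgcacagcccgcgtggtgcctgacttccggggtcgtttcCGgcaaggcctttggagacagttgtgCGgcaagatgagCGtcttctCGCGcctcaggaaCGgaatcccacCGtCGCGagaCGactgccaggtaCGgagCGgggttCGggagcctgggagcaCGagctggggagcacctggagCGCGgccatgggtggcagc
Tuba3a: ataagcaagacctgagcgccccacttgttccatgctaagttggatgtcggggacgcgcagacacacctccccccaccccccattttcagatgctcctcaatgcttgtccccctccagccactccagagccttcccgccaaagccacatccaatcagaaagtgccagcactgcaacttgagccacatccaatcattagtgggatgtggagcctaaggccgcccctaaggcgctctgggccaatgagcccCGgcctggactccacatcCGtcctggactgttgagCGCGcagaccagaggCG
Cldn18: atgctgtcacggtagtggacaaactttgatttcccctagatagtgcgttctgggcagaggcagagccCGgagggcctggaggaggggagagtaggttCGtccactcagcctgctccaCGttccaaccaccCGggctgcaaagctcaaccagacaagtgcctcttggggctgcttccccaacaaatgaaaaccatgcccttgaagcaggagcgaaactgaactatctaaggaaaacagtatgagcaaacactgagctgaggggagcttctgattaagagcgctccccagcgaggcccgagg
Slc41a3: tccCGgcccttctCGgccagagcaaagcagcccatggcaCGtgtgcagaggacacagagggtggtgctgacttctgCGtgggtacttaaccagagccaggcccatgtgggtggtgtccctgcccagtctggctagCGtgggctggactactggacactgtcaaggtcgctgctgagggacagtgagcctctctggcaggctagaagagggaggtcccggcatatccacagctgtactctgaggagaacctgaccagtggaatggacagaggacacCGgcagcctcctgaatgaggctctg
These sequences hold 32 CpGs (Fkbp6), 12 (Tuba3a), 10 (Cldn18) and 8 (Slc41a3). Over the 11 placed promoters in members the median was 10 CpGs in 300 bases, with a median GC content of 59.7%. The 6857 placed promoters in dense low-methylated windows had a median of 25 CpGs and a GC content of 65.0%. Fkbp6 was the one among the 11 that reached the CpG number of a typical unmethylated island.

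Fkbp6 is needed for meiosis in mice and is a gene of the germline. Its promoter was placed on the minus strand at chr5:135825734-135826033 (mm9), with 33 listed cytosines falling on its CpGs. A second place on the chromosome also fitted the sequence, and the order of the neighbouring genes chose this one. Over 29 covered cytosines the promoter had 7.58% in KO replicate 1 and 2.53% in KO replicate 2, against 87.9% in WT replicate 1 and 81.7% in WT replicate 2. Single cytosines ranged from 0 to 36.4% in KO replicate 1 and from 0 to 10.0% in KO replicate 2, against 68.8 to 100% in WT replicate 1 and 66.7 to 100% in WT replicate 2. The ranges of the KO and WT libraries did not overlap. Of the 29 cytosines 17 had no methylated call in KO replicate 2. Each cytosine had only 10 to 38 calls, and cytosines of one strand share their reads. The whole member window, with 43 cytosines, had 6.11% and 2.78% in KO, against 90.2% and 86.9% in WT, and was the lowest in KO replicate 1 of the members with 500 or more calls in each library.

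Tuba3a, a testis alpha-tubulin gene, was the one gene of a list of 18 germline genes found in a member. The promoters of 12 of the 18 genes were placed. Its promoter, placed with 13 listed cytosines on the minus strand at chr6:125236050-125236349, had 20.7% and 7.003% in KO, against 71.6% and 77.2% in WT, over 9 covered cytosines. Its cytosines ranged from 2.86 to 41.7% in KO replicate 1 and from 0 to 14.3% in KO replicate 2, against 43.2 to 96.9% in WT replicate 1 and 48.0 to 97.2% in WT replicate 2. Of 8 pluripotency genes 3 were placed and of 10 housekeeping genes 5, and none of these 8 lay in a member.

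Of the other 11 placed germline promoters, which were not in members, 8 had covered cytosines. Tex101, a testis-expressed gene, came nearest, with 31.5% and 24.7% in KO, against 92.4% and 89.2% in WT, over 14 cytosines. Sycp1, a protein of the synaptonemal complex of meiosis, had 35.2% and 22.8% in KO, against 75.2% and 74.6% in WT. Dazl, an RNA-binding protein of germ cells, had 18.5% and 4.74% in KO, against 72.5% and 67.5% in WT. Asz1, which acts in piRNA production, had 17.6% and 9.47% in KO, against 67.4% and 75.8% in WT. Hormad1, a protein of meiotic chromosome axes, had 4.79% and 2.15% in KO, against 38.1% and 44.4% in WT. In each of these 5 promoters the KO and WT levels did not overlap, with KO lower, and the WT level did not reach 80% in both libraries in 4 of them. The remaining 3 (Slc25a31, Rpl10l and Ddx4) had 2.60 to 21.2% in KO replicate 1, against 11.5 to 63.3% in WT replicate 1. Within each of these genes the KO and WT levels did not overlap either, with KO lower. Both KO libraries also lay below both WT libraries in 89% of all 119319 windows. The lack of overlap thus does not set these promoters apart.

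Cldn18, which codes for a tight junction protein of stomach and lung epithelium, had its promoter placed with 15 listed cytosines on the minus strand at chr9:99610433-99610732. It had 41.7% and 26.1% in KO, against 92.6% and 91.4% in WT, over 6 cytosines that lie between 119 and 183 bases before the start. Slc41a3, of a family of magnesium transporters, had its promoter placed with 11 listed cytosines, the fewest of the 11 promoters, on the plus strand at chr6:90568990-90569289. It had 45.6% and 31.2% in KO, against 93.9% and 90.5% in WT, over 6 cytosines. Both promoters were chosen as the highest of the 11 in both KO libraries. That they kept more than those of Fkbp6 and Tuba3a follows from this choice. The promoter of Prr29 overlapped the edge of a member and had 23.7% and 9.33% in KO, against 60.1% and 56.5% in WT. The member window itself had 35.6% and 15.3% in KO, against 80.6% and 85.3% in WT. The other 6 placed starts were of Aknaos and 5 gene models named only by number (Gm15455, Gm34347, Gm42156, Gm43915 and Gm51605). Their promoters had 11.3 to 33.9% in KO replicate 1 and 1.18 to 20.6% in KO replicate 2, against 85.3 to 93.3% in WT replicate 1 and 82.2 to 91.5% in WT replicate 2.

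**Figure D1:**
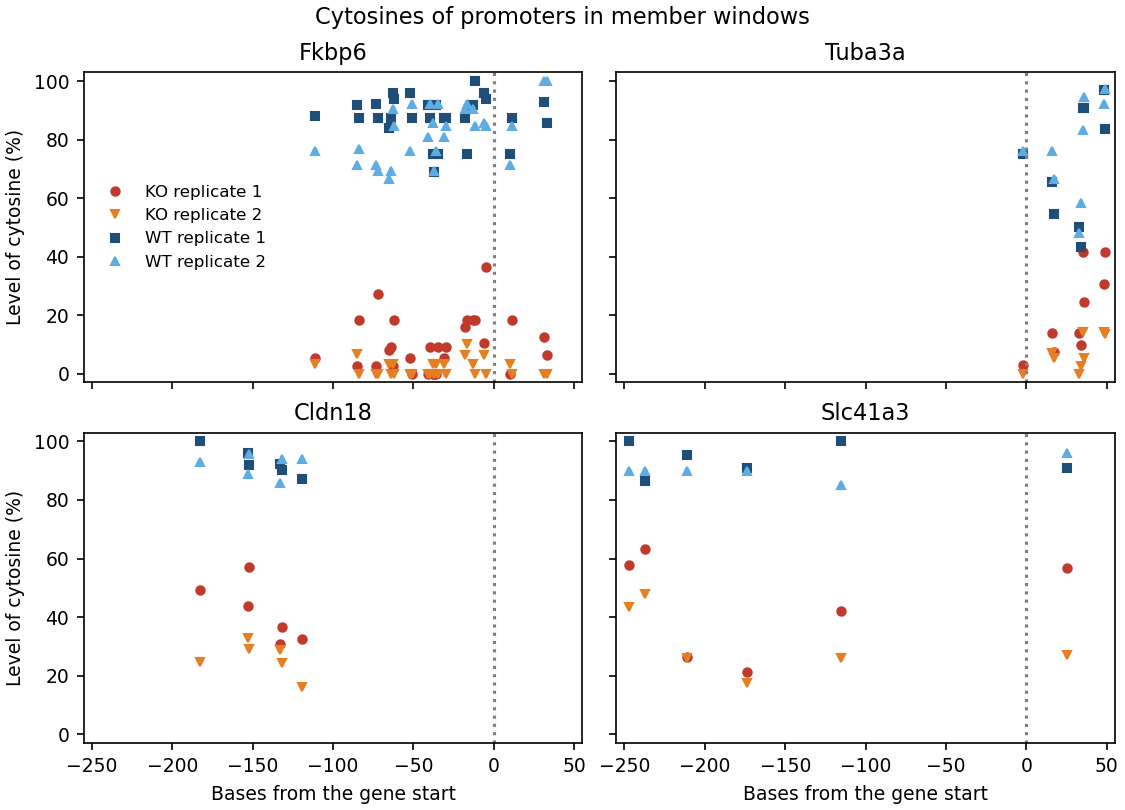
Methylation level in percent of single cytosines in 4 placed promoters that overlap member windows, by distance in bases from the gene start (dotted line), with 1 symbol per cytosine and library. The KO symbols of Fkbp6 lie at 0 to 36.4% and its WT symbols at 66.7 to 100%, while those of Slc41a3 reach 63.2% in KO replicate 1.

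Most members lay away from placed gene starts. The median distance from the middle of a member to the nearest placed start was 62.4 kb, against 4.74 kb for dense low-methylated windows, 83.6 kb for methylated windows with 10 to 19 cytosines and 102 kb for those with 3 to 9. Within 5 kb of a placed start lay 69 members (6.32%), and within 20 kb 272 (24.9%). Of the 272, 65.1% lay on the transcribed side of that start, against 57.8% of dense low-methylated windows at the same distance and 60.8% of methylated windows with 10 to 19 cytosines. Members of chromosome 18 stand outside these counts, since its promoter sequences were not used here. No annotation of mm9 was used, so whether a member lies in an exon, an intron or between genes cannot be given. KO levels differed little with this distance. Members within 5 kb of a placed start had 30.4% in the first KO library and 20.5% in the second, while those over 100 kb away had 33.0% and 20.7%.

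Methylation of the members was far lower in both KO libraries than in both WT libraries. Over the 1123 windows KO replicate 1 had a mean of 32.6%, with a lowest level of 4.69%, a median of 31.5% and a highest level of 77.9%. KO replicate 2 had a mean of 21.3%, from 2.78% through a median of 20.0% to 60.2%. The WT means were 88.9% in replicate 1 and 89.0% in replicate 2. The group means were 26.9% ± 7.97 in KO and 88.9% ± 0.0857 in WT (SD, n = 2 each), which differ by -62.0 points (KO minus WT). The smallest difference of any member was -26.6 points and the largest -86.3. Compared by a two-sided exact permutation test, the 4 means gave p = 0.333, the smallest that 2 against 2 libraries allow.

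The quasi-likelihood test of edgeR, applied to the 2 kinds of call, gave all 1123 members as lower in KO and none as higher. A call needed a Benjamini-Hochberg adjusted p below 0.05 over all 119319 windows and a difference of 10 points or more. The largest adjusted p of a member in this test was 7.55e-05. Over all windows tested, 76.5% were called lower and 0.00251% higher. Among the 51541 sparser windows with 80% or more in both WT libraries 51537 were called lower, 100% after rounding, so the count of calls does not set the members apart from them. Neither KO library reached the lower of the WT libraries in any of the 1123 members, and this held in 89% of all windows. When windows were chosen on WT replicate 1 alone, 1172 windows with a level of 88.6% there were found. They had 88.5% in WT replicate 2, which was not used in the choice, and 32.2% and 21.0% in KO.

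**Figure D2:**
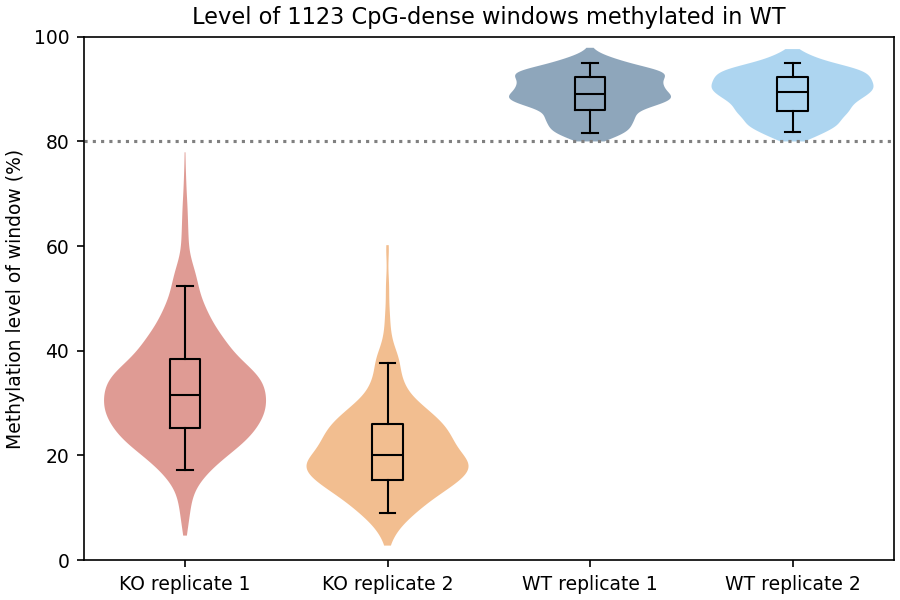
Methylation level in percent of the 1123 member windows in each library. Violins show the spread over windows, boxes the quartiles with the median, whiskers the 5th to 95th percentile, and the dotted line the WT threshold of 80%. KO replicate 1 has its median at 31.5% and KO replicate 2 at 20.0%, and no KO window reaches the threshold.

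The KO libraries differed from each other in amount but ranked the members alike. KO replicate 1 held 36.6% of the mean WT level and KO replicate 2 held 23.9%, and 7 members were higher in replicate 2 than in replicate 1. Across the 1123 members, which share the 2 libraries and the depth of the window between them, Pearson's r between the KO libraries was 0.90 and Spearman's rho 0.87. The members were split into 5 parts of equal size by the level in KO replicate 1, and these were read in KO replicate 2. The lowest quintile, up to 23.8% in KO replicate 1, averaged 12.04% ± 4.05 in KO replicate 2. The highest quintile, from 40.7% up, averaged 33.3% ± 7.98 (SD over 225 windows). The lowest and highest quintile had a similar median number of cytosines (23 and 24) and a similar median depth (30.9 and 29.1 calls per cytosine). Their WT levels differed, at 86.3% and 91.8% in WT replicate 1, and their part in the KO difference was not tested.

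**Figure D3:**
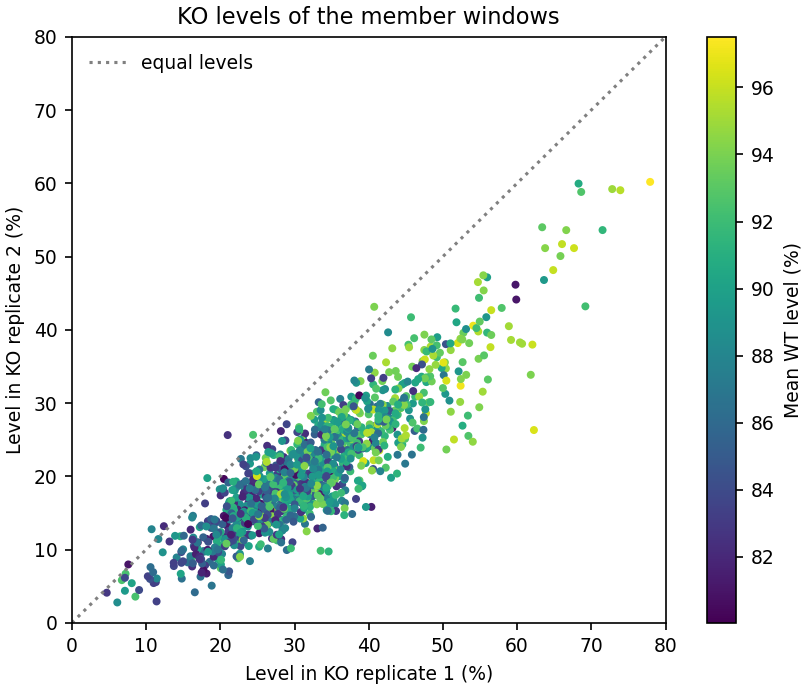
Level in percent of each member window in KO replicate 1 (x axis) and KO replicate 2 (y axis), coloured by the mean WT level, with equal levels on the dotted line. All but 7 points lie on or below the line, in 1 band that runs from 4.69% to 77.9% on the x axis.

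Members that were more fully methylated in WT had higher levels in KO. Members with a mean WT level of 80 to 85% averaged 26.6% in the first KO library and 17.1% in the second, over 225 windows. Those with 95% or more had 48.2% and 33.0% (48 windows). The correlation of the mean KO level with the mean WT level across the members was r = 0.46 (rho = 0.46), given as a description over 1123 windows of the same libraries. The relation was seen in the sparser windows as well. At 80 to 85% in WT, methylated windows with 10 to 19 cytosines had 27.5% and 18.2% in KO, and those with 3 to 9 cytosines had 25.8% and 16.9%. At 95% or more these classes had 47.2% and 33.9%, and 43.6% and 30.9%.

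Methylated windows with different numbers of covered cytosines had similar levels in KO. Their median local density was 6.20 cytosines per 100 bp in members, 6.03 at 10 to 19 cytosines and 4.17 at 3 to 9. Members and windows with 10 to 19 cytosines thus differed little in local density. Without matching on the WT level, members averaged 32.6% in KO replicate 1, against 33.3% in methylated windows with 3 to 9 cytosines, a difference of -0.728 points. In KO replicate 2 they averaged 21.3% against 22.3%, a difference of -1.07 points. Within classes of similar WT level the sign was the opposite. The classes were set on observed WT levels. In WT replicate 1 windows with 3 to 9 cytosines had a median of 140 calls, against 782 in members. In the highest class their mean WT level was 96.2%, against 95.8% in members. The part of this in the sign was not tested. Members had a higher mean than windows with 3 to 9 cytosines in all 4 classes in both KO libraries. In KO replicate 1 they had 30.2% against 28.5% at 85 to 90% in WT, and 36.1% against 35.0% at 90 to 95%. In KO replicate 2 they had 19.6% against 18.5% and 23.7% against 23.5%. Against methylated windows with 10 to 19 cytosines, members had the lower mean in every class in KO replicate 2. In KO replicate 1 they were also lower, except at 95% or more in WT, where they had 48.2% against 47.2%. These differences were taken within each KO library. The gap of 11.3 points between the KO libraries thus does not measure their spread. KO held 30.3% of the WT level in members, 31.5% in methylated windows with 10 to 19 cytosines and 30.7% in those with 3 to 9. No test of these differences was made.

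**Figure D4:**
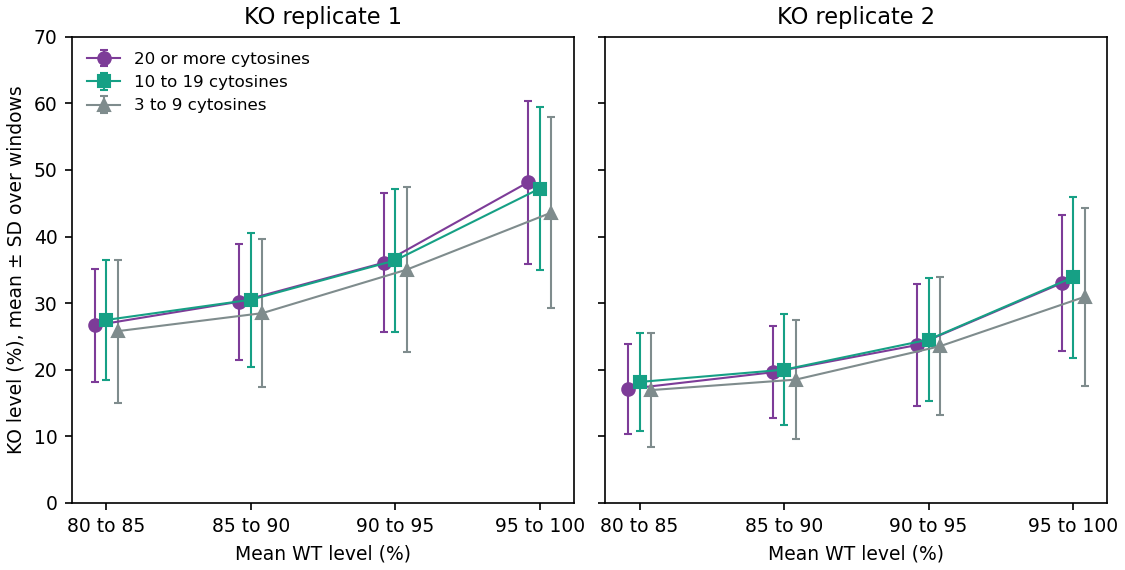
Mean KO level in percent (± SD over windows) by mean WT level, for members and for sparser methylated windows, with KO replicate 1 on the left and KO replicate 2 on the right. In all 3 classes the KO mean is highest in the highest WT class, at 48.2% for members in KO replicate 1.

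The more cytosines a dense window held, the more rarely it was a member, while KO levels of members varied little with that number. The share of members went down from 24.9% of windows with exactly 20 cytosines to 15.4% at 20 to 29, 4.11% at 30 to 39, 0.705% at 40 to 59 and 0.0726% at 60 to 79. None of the 4023 windows with 80 or more cytosines was a member, which allows a share of up to 0.0746% by counting error alone. Most members thus stood near the lower bound, with a median of 23 cytosines spread over 401 bp. KO replicate 1 had 32.5% ± 10.7 in members with 20 to 29 cytosines, 32.8% ± 10.4 at 30 to 39 and 32.6% ± 12.9 at 40 to 59 (SD over 950, 139 and 32 windows). KO replicate 2 had 21.2%, 21.9% and 20.8%. Members with 40 or more cytosines differed from those with 20 to 29 by 0.665 points in KO replicate 1 and by -0.208 in KO replicate 2, so the KO libraries gave opposite signs.

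The 3 members with most cytosines show the same middle range. A window of chromosome 12 (chr12:30687001-30688000) with 75 cytosines had 40.7% and 22.2% in KO, against 95.4% and 96.3% in WT. A window of chromosome 13 (chr13:45663001-45664000) with 67 cytosines had 42.9% and 27.5% in KO, against 89.7% and 88.5% in WT. A window of chromosome 2 (chr2:104008001-104009000) with 57 cytosines had 35.4% and 19.5% in KO, against 93.9% and 93.0% in WT. In each of the 3 KO replicate 1 lay above KO replicate 2, and both lay far below WT. No placed gene start was closer than 45.6 kb to any of them.

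Cytosines within a member varied more than counting error gives. Over 27995 cytosines of the members the SD within a window was 16.0 points in KO replicate 1, where counting alone gives 9.07, and 13.3 in KO replicate 2, where it gives 7.89. In WT it was 11.4 and 11.5, against 5.997 and 6.38 from counting. In KO the SD between windows was 10.7 and 8.73 points, below that within windows. A level of 80% or more was found at 1.44% of these cytosines in KO replicate 1 and 0.243% in KO replicate 2, against 86.5% and 86.4% in WT. No methylated call was found at 2.04% and 6.02% of them in KO, against 0.204% and 0.218% in WT. Levels below 20% were found at 27.9% of the cytosines in KO replicate 1 and 53.1% in KO replicate 2, against 0.350% and 0.325% in WT. The KO libraries thus held few cytosines at 80% or more and many at low levels, at a median of 28 and 29 calls per cytosine.

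Members were found on every autosome. Their number ran from 30 on chromosome 19 to 112 on chromosome 5, and per 10 Mb from 2.19 on chromosome 3 to 7.34 on chromosome 5. They made up 3.86% of the dense windows on chromosome 2 and 7.31% on chromosome 5. Chromosome means lay between 30.2% (chromosome 19) and 37.2% (chromosome 1) in KO replicate 1, and between 19.3% (chromosome 2) and 25.1% (chromosome 1) in KO replicate 2. The WT means lay between 87.7% and 90.3%, and chromosome 1 had 90.1% in both. On chromosome 8 the median number of calls per member in KO replicate 1 was 0.812 of that in WT replicate 1, and on the other chromosomes it was 0.879 to 1.01 of it. Its members had 32.9% and 21.9% in KO, within the range of the other chromosomes.

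Members gathered toward the distal ends of the chromosomes. The place of a window was taken as a share of the last listed position of its chromosome, and mouse chromosomes have their centromere at the low end. Each chromosome was cut into 10 deciles of equal length. They were counted from its first base and not from its first listed position. Any unlisted stretch at that end thus falls in the first decile. The last decile held 235 members (20.9%) and the decile before it 188 (16.7%), while the first decile held 48 (4.27%). Other dense windows were spread more evenly, with 14.9% in the last decile and 5.27% in the first. Methylated windows with 10 to 19 cytosines had 19.04% and 5.56% there. Sparser methylated windows thus also had their largest share in the last decile, and no test of these shares was made.

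The highest KO means were found at the centromeric end. The 48 members of the first decile averaged 38.8% in KO replicate 1 and 26.7% in KO replicate 2, against 89.3% and 89.7% in WT. The 235 members of the last decile averaged 31.0% and 20.3% in KO, against 88.9% and 88.9% in WT. The difference, last minus first, was -7.81 points in KO replicate 1 and -6.40 in KO replicate 2, while the WT levels of these deciles differed by less than 1 point. The SD over windows in the first decile was 14.1 and 12.7 points, and 30 of its 48 members lay above the mean of all members in KO replicate 1. Sparser methylated windows differed the same way but by less, with 37.1% in the first and 33.3% in the last decile for windows of 10 to 19 cytosines in KO replicate 1, and 35.3% and 33.2% for windows of 3 to 9. With a coverage minimum of 20 calls, which left 331 members, the mean of the 2 KO differences was -0.821 points in place of -7.10, and with 30 or more cytosines per window it was -1.99. The correlation of the mean KO level with the place along the chromosome over all members was only -0.11 (rho = -0.10).

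**Figure D5:**
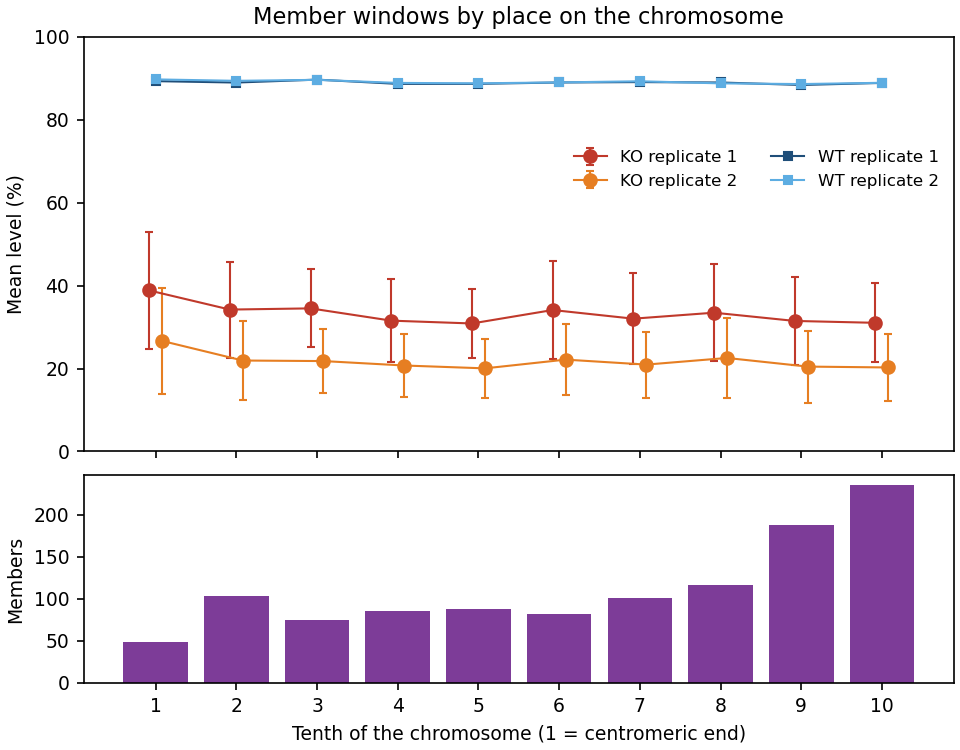
Mean level in percent of member windows in each decile of the chromosome length, from the centromeric end (1) to the distal end (10), with SD over windows for the KO libraries, and the number of members per decile below. KO replicate 1 stands at 38.8% in decile 1 and 31.0% in decile 10, and the number of members is 48 and 235 there.

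Most members had no other member close by. Another member lay within 5 kb of 92 of them, 8.19% (95% exact binomial interval 6.66 to 9.95), and within 100 kb of 28.7%. The interval takes members as independent, but closeness is mutual between members, so it does not measure the spread of this share. Of the 19744 other dense windows, which are far more numerous, 57.2% had another such window within 5 kb and 92.3% within 100 kb. No comparison with windows placed at random was made, so whether 8.19% is more than random placing gives was not tested. Of the members 1085 had no adjacent member, 16 runs held 2 windows and 2 runs held 3. A dense low-methylated window lay within 5 kb of 110 members (9.80%), against 6.86% of methylated windows with 10 to 19 cytosines and 6.32% of those with 3 to 9. Within 20 kb the shares were 32.9% of members, 27.5% and 24.2%, and within 100 kb 74.3%, 67.2% and 63.4%. Members had the largest share at each of these 3 distances, and no test of it was made. Members within 5 kb of a low window had 30.3% and 20.4% in KO, against 86.9% and 86.9% in WT, and those over 100 kb away had 33.6% and 20.7% in KO, against 89.5% and 89.7% in WT.

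Adjacent members had more similar KO levels than members far apart. In the 20 pairs of adjacent windows the levels differed by a median of 5.27 points in KO replicate 1 and 2.05 in KO replicate 2. In the 920 pairs of successive members more than 100 kb apart the medians were 8.87 and 7.22. Pearson's r between the windows of a pair was 0.65 and 0.82 for adjacent pairs, and 0.08 and 0.09 for pairs over 100 kb apart. For the 49 pairs within 5 kb, which include the adjacent ones, the medians were 7.67 and 4.74 and r was 0.49 and 0.62. For the 135 pairs 5 to 100 kb apart the medians were 8.91 and 6.85 and r was 0.11 and 0.21. The adjacent pairs are few, and these values are a description.

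The longest runs differed from each other. On chromosome 8 a run from 125951001 to 125954000, near the placed start of Def8, had 65.8%, 64.9% and 55.4% in KO replicate 1 in its 3 windows and 50.1%, 48.2% and 47.4% in KO replicate 2. WT levels there were 93.7 to 96.7%, and the depth was 91.9 to 130 calls per cytosine, where the member median was 30.9. On chromosome 11 a run from 115662001 to 115665000 lay 11.6 to 13.6 kb upstream of the placed start of Tsen54, a subunit of the tRNA splicing endonuclease. It had 30.0%, 37.4% and 37.1% in KO replicate 1 and 16.2%, 25.2% and 26.0% in KO replicate 2, at 22.1 to 37.4 calls per cytosine. The first run thus kept far more than the member mean in both KO libraries, and the second lay near it.

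A group of 4 members on chromosome 5, between 23207001 and 23215000, was the largest with steps of 5 kb or less. Its windows had 54.5%, 50.4%, 66.6% and 35.7% in KO replicate 1 and 40.2%, 38.0%, 53.6% and 22.7% in KO replicate 2, against 84.1 to 94.6% in WT replicate 1. They were read at 114 to 228 calls per cytosine. In all, 11 members (0.980%) had 100 or more calls per cytosine, against 0.132% of other dense windows, and 8 of the 11 fell in the highest quintile of KO replicate 1. The deepest, on chromosome 2 (chr2:98502001-98503000), had 4735 calls per cytosine and levels of 38.2% and 27.5% in KO, against 82.1% and 82.6% in WT. The part of depth in these levels was not tested. Without the 11 windows the KO share of the WT level was 30.1%, in place of 30.3%.

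The extremes of the members were read from the 856 windows with 500 or more calls in each library, chosen on KO replicate 1 and read in KO replicate 2. The 5 with the highest level had 66.1 to 71.5% in KO replicate 1, and in KO replicate 2 they had 51.1 to 58.8%, all above the highest quintile's mean of 33.3%. A window of chromosome 1 (chr1:157612001-157613000) with 21 cytosines had 71.5% and 53.6% in KO, against 93.3% and 89.8% in WT. A window of chromosome 9 (chr9:3948001-3949000), close to the centromeric end, had 68.6% and 58.8% in KO, against 92.9% and 92.5% in WT. The others lay on chromosomes 3, 5 and 14. On chromosome 3 (chr3:87273001-87274000) the levels were 67.7% and 51.1% in KO, against 95.8% and 96.6% in WT. On chromosome 14 (chr14:92439001-92440000) they were 66.1% and 51.7% in KO, against 95.4% and 96.3% in WT. The window of chromosome 5 belongs to the deeply read group described above. High levels in KO replicate 1 were thus high in KO replicate 2 too. Among all members 12 had 50% or more in both KO libraries, and none of them reached 80% in either.

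The 5 with the lowest level had 6.11 to 7.60% in KO replicate 1 and 2.78 to 7.97% in KO replicate 2. The lowest of the 856 in KO replicate 1 was the Fkbp6 window described above. On chromosome 11 (chr11:97934001-97935000) a window with 33 cytosines had 7.23% and 6.70% in KO, against 91.4% and 93.5% in WT. On chromosome 17 (chr17:79063001-79064000) the levels were 7.14% and 6.15% in KO, against 81.7% and 86.0% in WT. On chromosome 18 (chr18:80502001-80503000) they were 7.14% and 4.38% in KO, against 88.2% and 90.7% in WT. On chromosome 2 (chr2:92812001-92813000) they were 7.60% and 7.97% in KO, against 80.5% and 81.4% in WT. Their adjusted p in edgeR's quasi-likelihood test ran from 1.89e-45 to 5.47e-28. The levels in KO replicate 1 and in WT that entered this test also chose the windows. These p-values thus describe the choice and are not a finding. Among all members 10 had less than 10% in both KO libraries and 104 less than 20%.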

How the data were processed

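The data are reduced representation bisulfite tables of 4 libraries of mouse ES cells, 2 of Naa10 KO and 2 of WT. Each deposited table gives, per cytosine, the counts of methylated and unmethylated calls and a methylation percent. The authors' percent equals the methylated count over both counts. The submitters' processing notes name Trim Galore, Bismark 0.10.1 and mm9. How reads were trimmed, filtered or deduplicated is not given there. Molecules carried no identifiers, so intervals cover counting error only, and bases filled in at MspI ends can be read as cytosines of the genome.

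Counts of cytosines of chromosomes 1 to 19 with 10 or more calls in every library were summed in windows of 1 kb. Windows with 3 or more cytosines were tested with edgeR 4.0.16 in R 4.3.3. The fit had 1 term per library, 1 for the state of the call and its interaction with genotype. The code was also run on simulated data in which few windows changed and the replicates of a genotype shared their mean level. The real data differ on both points, so that run does not show how the test behaves here. Library means were compared with an exact permutation test (scipy 1.17.1). Alternatives were limma 3.58.1 on logit levels with 0.5 added, other coverage minimums and thresholds, left-out libraries and a replicate block. RefSeq promoters of GRCm38.p6 were placed by CpG spacing. A sequence was kept where 1 place lay between the places of its neighbours in RefSeq order, and where that was its only place on the chromosome or held 20 or more listed cytosines. The check of order and the allowance for 20 or more were added after seeing the data. With 10 or more, 10730 sequences fitted on their own chromosome and 5211 on the next one, and with 20 or more 6983 and 0. Of 5703 with a single place at 10 or more, 5272 kept RefSeq order, and of 3270 with a single place at 20 or more, 3264 did. No GRCm38.p6 coordinate was converted.

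The named windows are the 5 highest and 5 lowest in KO replicate 1 with 500 or more calls in each library, the 3 with most cytosines, the longest runs and those at the threshold. Genes named are those placed in a member and those of the lists. The group on chromosome 5, the deepest window and the 12 highest were singled out after their values were seen. Members and lists were chosen with earlier results of these data known.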

Additional observations from a re-analysis of the deposited data

How the results depend on the processing

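Every member was called lower in KO under each setting, so the count of calls equals the count of members: 2036 with a coverage minimum of 5 calls, 331 with 20, 409 with a WT threshold of 90%, 173 with 30 or more cytosines, and 1123 with limma and with the replicate block, a 25-point or no minimum difference. It ran from 1176 to 1337 with a library left out. The share of the WT level held in KO ran from 28.9 to 34.3% over the settings that kept both KO libraries. Same-numbered libraries did not deviate together (r = -0.0008 over the members).

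The difference between members and sparse methylated windows (main -0.897 points) was -0.446 and -1.42 with minimums of 5 and 20 calls, -0.281 and -1.41 with WT thresholds of 90% and 70%, -0.527 with 30 or more cytosines and -0.451 in 2 kb windows. The distal minus proximal difference (main -7.10) was -4.53 and -0.821 at 5 and 20 calls, -5.99 and -5.67 at 90% and 70%, -5.97 when chosen on WT replicate 1 and -1.99 with 30 or more cytosines; left-out libraries gave -7.39 to -5.36. The difference between members with 40 or more and with 20 to 29 cytosines (main 0.228) had no stable sign: -0.690 and -1.11 at 90% and 70%, -0.850 without the deepest positions, -0.432 without chromosome 8, -1.40 without windows of 100 or more calls per cytosine (added after seeing the data), and -0.642 to 1.39 with a library left out. With 30 or more cytosines it has no value. Members with another within reach were 5.14% at 20 calls, 4.72% within 2 kb and 14.2% within 20 kb. The causes of these shifts were not tested.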
